A study of Mus musculus with 12 samples.

Results

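Apolipoproteins are the protein coat of the particles that carry fat and cholesterol through the blood, and the liver makes most of them. The set described here holds 10 mouse genes, taken by symbol: Apoa1, Apoa2, Apoa4, Apoa5, Apob, Apoc1, Apoc2, Apoc3, Apoe and Apom. They are 10 of 54838 genes in the count table, and all 10 were among the 13861 genes with enough counts to be tested. RNA sequencing was done on livers of C57BL/6J mice, an inbred laboratory strain, with 3 mice, named as biological replicates, in each of 4 groups. Normoxia_PBS mice breathed normal air (21% O2) and received saline (PBS), and Normoxia_DEX mice breathed normal air and received dexamethasone (DEX), a synthetic glucocorticoid, at 10 mg/kg by injection into the abdominal cavity. Hypoxia_PBS and Hypoxia_DEX mice spent 24 h at 7% O2 before the same injections and were then returned to low oxygen. All livers were taken 2 h after injection, and all animals were fed freely. No animal carried an engineered allele according to the labels, and neither sex nor age of the mice is given in the sources used here.

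Apob is the large structural protein of very-low-density lipoprotein (VLDL), the particle in which liver cells export triglyceride, and 1 Apob molecule stays with each particle. Apoa1 and Apoa2 are the main proteins of high-density lipoprotein (HDL), which takes up cholesterol from tissues. The smaller exchangeable apolipoproteins set how fast a particle's triglyceride is broken down: Apoc2 activates lipoprotein lipase, Apoa5 promotes its action, and Apoc1 and Apoc3 restrain clearance. Apoe is the ligand by which remnant particles are taken up by liver receptors, Apoa4 accompanies fat-rich particles and is made above all by the small intestine and, in mice, by the fat-loaded or fasted liver, and Apom carries sphingosine-1-phosphate on HDL. Glucocorticoids act through a nuclear receptor on many liver genes, and low oxygen acts in part through hypoxia-inducible factors.

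The library totals ran from 12464687 to 24715995 counts. Behind each member other than Apoc2 stood 1601 to 342304 counts in every library, so that counting error was small for these 9 genes. Levels are given in CPM, each gene's counts relative to its library's total after scaling for composition. Differences are log2 fold changes with standard error (SE) from the quasi-likelihood test of edgeR, adjusted by Benjamini-Hochberg over all 13861 genes. A gene is said to rise or fall where its adjusted p was under 0.05. Replicates 1 and 3 of Hypoxia_DEX were unusually alike, with a chi-square of 1.79 per gene where other replicate pairs gave 10.54 to 38.45. They still differed by more than sampling noise, and they were kept as separate samples. Replicate 1 of Hypoxia_PBS and replicate 2 of Hypoxia_DEX stood apart from their groups and lay between PBS and DEX libraries on the second principal component (32.9% of the variance). The 4 comparisons of oxygen and of DEX share their groups pairwise, so the values of each are given side by side and not as independent evidence.

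Apoa1, Apoc3, Apoa4 and Apoa5 lie next to each other in a gene cluster on chromosome 9 (mm10, GENCODE M21 annotation). The RefSeq promoter windows of 8 of the 10 members were found by symbol. Of these, 3 are shown because the genes are neighbours with differing values: Apoa4 with the largest rise of the 10 in hypoxia, Apoa5 with a rise in hypoxia and a fall with DEX, and Apoa1 with log2 differences under 0.5 in size. Each window runs 300 bases on the plus strand of GRCm38.p6, from 250 before to 50 after the RefSeq start: chr9:46240594-46240893 for Apoa4, chr9:46268383-46268682 for Apoa5 and chr9:46228380-46228679 for Apoa1. Capitals mark matches to the short motifs named after the sequences.
Apoa4: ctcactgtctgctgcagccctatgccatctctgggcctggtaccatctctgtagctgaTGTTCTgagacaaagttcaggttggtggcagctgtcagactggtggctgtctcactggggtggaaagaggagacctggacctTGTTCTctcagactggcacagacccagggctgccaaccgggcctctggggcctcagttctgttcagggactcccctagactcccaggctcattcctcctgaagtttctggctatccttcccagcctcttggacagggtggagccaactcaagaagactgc
Apoa5: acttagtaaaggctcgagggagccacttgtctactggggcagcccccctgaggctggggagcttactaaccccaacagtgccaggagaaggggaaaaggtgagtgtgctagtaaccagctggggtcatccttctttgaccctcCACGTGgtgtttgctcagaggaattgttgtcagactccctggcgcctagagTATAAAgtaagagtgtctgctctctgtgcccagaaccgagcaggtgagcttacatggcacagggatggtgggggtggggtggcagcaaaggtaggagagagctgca
Apoa1: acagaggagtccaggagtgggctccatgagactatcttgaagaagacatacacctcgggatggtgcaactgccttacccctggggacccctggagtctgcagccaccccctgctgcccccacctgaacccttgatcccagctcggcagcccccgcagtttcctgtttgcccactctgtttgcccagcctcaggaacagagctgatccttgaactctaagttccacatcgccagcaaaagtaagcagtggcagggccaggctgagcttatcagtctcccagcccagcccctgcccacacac
Both strands were searched for ACGTG, the core of the hypoxia response element, and for its variant GCGTG. Also searched were TGACG from the cyclic AMP element, AGAACA, a half-site of the glucocorticoid receptor, AGGTCA, bound by many nuclear receptors, and the TATA box, TATAAA. The Apoa4 window held AGAACA, read as TGTTCT on the printed strand, at -192 to -187 and again at -110 to -105 from the start. AGAACA was present in 19% of 32851 promoter windows of the same length. In the Apoa5 window the palindrome CACGTG at -107 to -102 matched ACGTG on both strands, and TATAAA stood at -56 to -51. Apoa5 has a second RefSeq start, at -25 from this one. Counted from that start, CACGTG lies at -82 to -77 and TATAAA at -31 to -26. ACGTG occurred in 19.6% and TATAAA in 13.6% of all windows. The Apoa1 window held none of these letters, whose remaining shares were 32.4% for GCGTG, 20.8% for TGACG and 16.3% for AGGTCA. A full glucocorticoid receptor site (AGAACA, any 3 bases, TGTTCT) and the HNF4 core CAAAGTCCA were searched as well. None of the 3 windows held either, and they stood in 0.00913% and 0.475% of all windows. Members whose windows are not shown held some of the same motifs. AGAACA stood in windows of Apoc2, Apoe and Apom, and ACGTG in that of Apoc2. TATAAA stood in windows of Apoa2, Apob and Apoe, and TGACG and AGGTCA in windows of Apoa2 and Apoc2. The RefSeq start of Apoa4 lies 148 bases inside the 5′ end of the GENCODE gene.

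With a day of low oxygen, apolipoprotein messages of the liver were called in both directions, the falls less firmly than the rises. In saline-treated mice Apoa4, Apoa5 and Apoc3 rose, Apoa2 and Apoc1 fell, and Apoa1, Apob, Apoc2, Apoe and Apom did not pass edgeR's test. Thus 5 of 10 members were called, beside 35.7% of all tested genes. Without replicate 3 of Hypoxia_PBS 3 rose and 0 fell. DESeq2 called 6, Apob being the further one. In 6 of 10 the 3 hypoxic and 3 normoxic libraries did not overlap, beside 45.7% of all tested genes. The median log2 fold change of the 10 was -0.14, beside 0.0069 for all tested genes. With DEX in normal air, Apoa1 rose and Apoa5 fell. These are 2 of 10 members, beside 16.8% of all tested genes, and DESeq2 called 3, with Apoa4. Without replicate 1 or 2 of Normoxia_DEX or replicate 2 of Normoxia_PBS 1 was called. Groups did not overlap in 3 of 10, beside 35.9% of all tested genes. With DEX in low oxygen 0 of 10 members passed edgeR's threshold, beside 13.2% of all tested genes. Groups did not overlap in 4 of 10, beside 29.9% of all tested genes. In that comparison 2 members (Apoa1 and Apob) had an unadjusted p under 0.05, and DESeq2 called 1 (Apoa1). Between hypoxia and normoxia within DEX-treated mice, Apoa4, Apoa5 and Apoc3 rose and Apoa1 and Apom fell, 5 of 10 beside 42.9% of all tested genes. DESeq2 called 6, with Apoa2, and 3 were called without replicate 1 or 3 of Hypoxia_DEX or replicate 2 or 3 of Normoxia_DEX. Groups did not overlap in 6 of 10, beside 56.6% of all tested genes. A test of whether the DEX response differed with oxygen (the interaction) called 0 of 10 members with edgeR, beside 1.32% of all tested genes. Apoa4 and Apoa5, 2 of the 10, had an unadjusted interaction p under 0.05, and DESeq2 called 1, Apoa5.

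**Figure D1:**
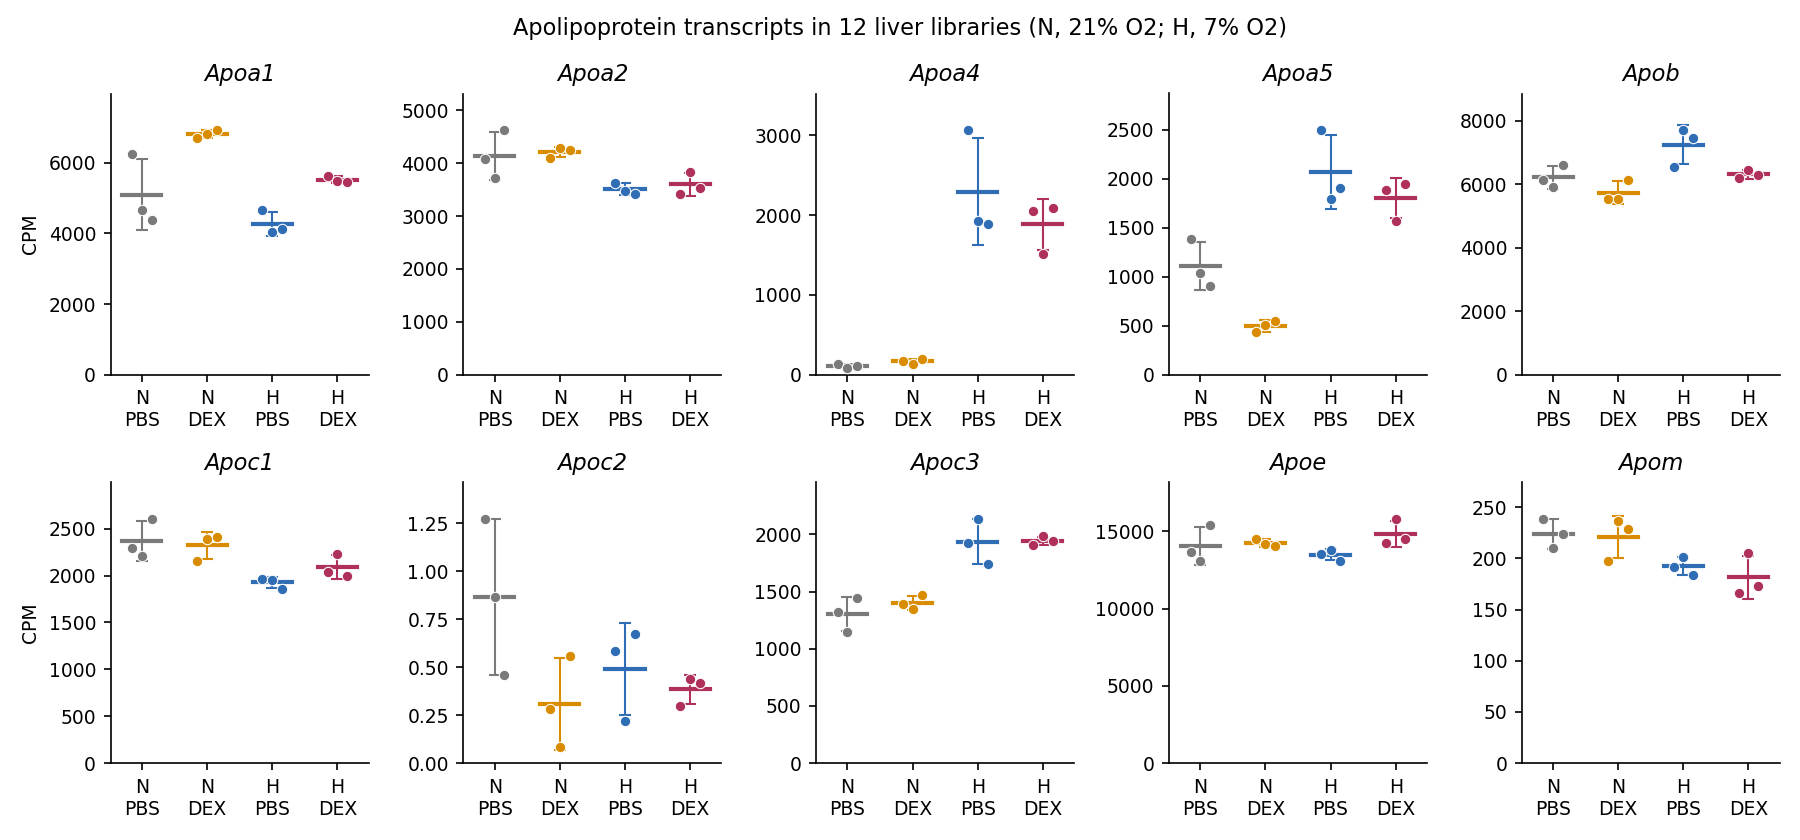
Level of each apolipoprotein transcript in CPM (y axis, linear from 0) in the 12 libraries, by group (x axis; N is 21% O2 and H is 7% O2). Points are libraries, thick bars the mean of 3 and thin bars the SD; Apoa4 stands near 0 in normoxia and at 1512 to 3064 CPM in hypoxia, while Apoe stays between 13100 and 15820 CPM.

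**Figure D2:**
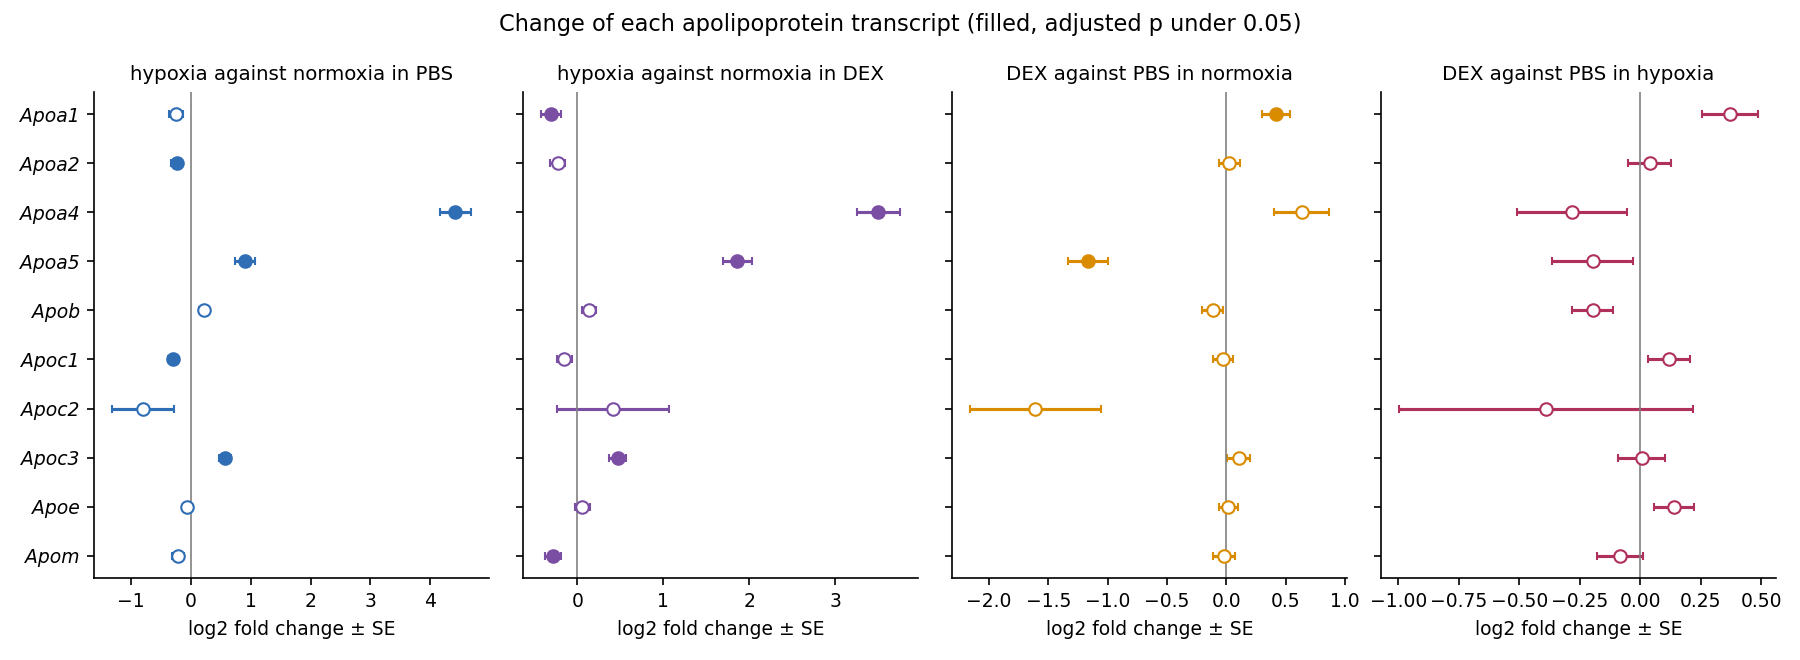
Log2 fold change (x axis; each panel has its own scale) with its SE for the 10 members in the 4 pairwise comparisons. Filled points had an adjusted p under 0.05; Apoa4, Apoa5 and Apoc3 are filled and to the right of 0 in both oxygen panels.

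Apoa4 had the widest range of the set. Its level was 128, 81.6 and 112 CPM in Normoxia_PBS and 170.2, 137 and 192 CPM in Normoxia_DEX. Hypoxia_PBS livers held 3064, 1923 and 1888 CPM, and Hypoxia_DEX livers 2051, 1512 and 2089 CPM. Every hypoxic library was far above every normoxic library. The rise was 21.4-fold in saline (log2 fold change 4.42, SE 0.262, adjusted p 1.54e-06) and 11.3-fold under DEX (3.50, SE 0.25, adjusted p 3.08e-06). By the size of its log2 rise in saline Apoa4 was number 21 of the 13861 tested genes. Per kilobase of exon, which allows levels of different genes to be compared, Apoa4 stood between ranks 500 and 764 in Normoxia_PBS and between ranks 34 and 47 in Hypoxia_PBS. In those units its ratio to Apoa1 went from 0.0119 to 0.0174 in Normoxia_PBS to 0.312 to 0.448 in Hypoxia_PBS. DEX in normal air gave a log2 difference of 0.64 (SE 0.23, adjusted p 0.0895) that missed the threshold, and the libraries of the 2 groups did not overlap. It passed in DESeq2, with a replicate block, without replicate 1 of Hypoxia_PBS and without both libraries that stood apart (adjusted p from 0.0055 to 0.269 over the settings). In hypoxia the DEX difference was -0.28 (adjusted p 0.475), with overlapping groups, and it was 0.15 (adjusted p 0.649) without the 2 libraries that stood apart. The interaction, -0.92 (SE 0.323, adjusted p 0.259), was not called.

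The libraries keep the strand of the RNA, but whether counting used it is not given in the sources used here, which bears on Apoa4. Genes Gm47528 and Gm10680 lie across it on the opposite strand and cover 34.9% and 34.8% of its exon bases. Their summed counts were low beside it: Gm10680 had 15 counts in Normoxia_PBS, 37 in Normoxia_DEX, 393 in Hypoxia_PBS and 266 in Hypoxia_DEX, over 3 libraries each. Gm47528 had 2, 3, 64 and 51 counts in the same order. Markers of the intestine, the main source of Apoa4, were mostly at or near 0. Of 12 intestinal epithelium markers, Sis, Alpi, Cdx1, Cdx2 and Krt20 had 0 counts in all 12 libraries, Lct had at most 1 count, Muc2 at most 2 and Vil1 at most 7. The other 4 markers (Fabp2, Anpep, Cdhr5 and Lgals4) were detected, and Fabp2 and Lgals4 rose with hypoxia in saline, the Lgals4 call being lost in 15 of 20 other settings. The summed level of the 12 was 174 to 205 CPM in Normoxia_PBS and 195 to 251 CPM in Hypoxia_PBS.

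Apoa5, which promotes the breakdown of plasma triglyceride, moved with both treatments. Its level was 1385, 1033 and 909 CPM in Normoxia_PBS and 430.3, 505 and 549 CPM in Normoxia_DEX. All 3 DEX-treated livers in normal air were below all saline-treated ones. The fall was to 0.446 of the saline level (log2 fold change -1.16, SE 0.169, adjusted p 0.000398). Hypoxia_PBS livers held 2494, 1788 and 1908 CPM, a 1.86-fold rise (0.90, SE 0.168, adjusted p 0.00147) without overlap. Hypoxia_DEX livers held 1885, 1565 and 1948 CPM, which overlapped Hypoxia_PBS (log2 difference -0.20, SE 0.167, adjusted p 0.497). Relative to Normoxia_DEX, hypoxia with DEX was 3.64-fold higher (1.86, SE 0.172, adjusted p 6.86e-06). The DEX responses in the 2 oxygen conditions differed by 0.97 (SE 0.237), with an adjusted p of 0.0754 that missed the threshold. This interaction passed without replicate 1 of Hypoxia_PBS, without replicate 3 of Normoxia_PBS and in DESeq2, and adjusted p ranged from 0.00547 to 0.261 over the settings tried. The antisense gene Gm47544 covers 20.8% of the Apoa5 exon bases and had 26, 14, 54 and 43 summed counts in Normoxia_PBS, Normoxia_DEX, Hypoxia_PBS and Hypoxia_DEX.

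Apoc3, an inhibitor of lipoprotein clearance, rose with hypoxia to a lesser extent and showed little difference with DEX. Libraries held 1322, 1151 and 1441 CPM in Normoxia_PBS and 1929, 2138 and 1746 CPM in Hypoxia_PBS. Under DEX the values were 1388, 1350 and 1470 CPM in normoxia and 1910, 1984 and 1939 CPM in hypoxia. All 6 hypoxic libraries lay above all 6 normoxic libraries. The rise was 1.49-fold in saline (log2 fold change 0.57, SE 0.0964, adjusted p 0.000589) and 1.39-fold under DEX (0.47, adjusted p 0.00155). The DEX differences were 0.10 in normoxia (adjusted p 0.534) and 0.01 in hypoxia (adjusted p 0.983). Apoc1, a small inhibitor of lipoprotein uptake and lipase action, went the other way in saline. It held 2289, 2212 and 2607 CPM in Normoxia_PBS and 1966, 1956 and 1862 CPM in Hypoxia_PBS, without overlap (-0.30, SE 0.0859, adjusted p 0.016). The call was lost without replicate 3 of either group (adjusted p up to 0.0618). Under DEX the oxygen difference was -0.15 (adjusted p 0.173).

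Apoc2, the activator of lipoprotein lipase, was counted at 2 to 22 reads per library. Its values therefore cannot be read as the liver's Apoc2 level. In the GENCODE annotation 646 bases, 79.5% of its exon bases, are shared on the same strand with Gm44805, a read-through gene that spans Apoc2 and Apoc4 and had 0 counts in all 12 libraries. How the counting treated reads that fall on both genes is not given in the sources used here, and the part of this overlap in the low count was not tested. No comparison of Apoc2 passed the threshold, the lowest adjusted p being 0.0631 for DEX in normoxia (log2 difference -1.61, SE 0.55), which passed in 5 other settings.

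Of the main HDL proteins, Apoa1 rose with DEX in normal air and Apoa2 fell with hypoxia in saline, both by less than 0.5 on the log2 scale. Apoa1 held 6244, 4671 and 4380 CPM in Normoxia_PBS and 6691, 6831 and 6926 CPM in Normoxia_DEX. In CPM the 3 DEX livers were above all 3 saline livers, and the rise was 1.34-fold (log2 fold change 0.42, SE 0.115, adjusted p 0.0231). As a share of counts before scaling for composition, replicate 1 of Normoxia_PBS (0.687%) was above all 3 DEX livers (0.663% to 0.674%). The call was lost in 7 of 20 other settings, among them library totals and a fit of just the 2 groups. It was also lost without replicate 2 or 3 of Normoxia_PBS or without any of the 3 replicates of Normoxia_DEX. Its adjusted p ran from 0.000748 to 0.127 over all settings. In hypoxia Apoa1 held 4657, 4040 and 4118 CPM with saline and 5630, 5475 and 5461 CPM with DEX. These groups did not overlap either, and the difference of 0.37 (SE 0.115) had an adjusted p of 0.0505, just outside the threshold. The adjusted p of that difference ran from 0.00935 to 0.159 over the settings tried. Hypoxia lowered Apoa1 under DEX (-0.30, adjusted p 0.048), a call lost in 11 of 20 other settings, among them leaving out any library of Hypoxia_DEX or Normoxia_DEX or replicate 2 or 3 of Hypoxia_PBS (adjusted p up to 0.136). The difference in saline was -0.26 (SE 0.115, adjusted p 0.102).

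Apoa2 held 4080, 3717 and 4625 CPM in Normoxia_PBS and 3630, 3478 and 3412 CPM in Hypoxia_PBS. The groups did not overlap, and the fall of 0.24 on the log2 scale had an adjusted p of 0.0489. It was lost in 9 of 20 other settings, among them leaving out replicate 1 or 3 of Normoxia_PBS, 2 or 3 of Hypoxia_PBS, 1 of Normoxia_DEX or 3 of Hypoxia_DEX (adjusted p up to 0.167). Under DEX it held 4098, 4290 and 4246 CPM in normoxia and 3424, 3843 and 3535 CPM in hypoxia, a difference of -0.23 (adjusted p 0.0535). That difference passed in 7 of 20 other settings, among them DESeq2, no low-count filter and leaving out replicate 2 or 3 of Normoxia_PBS (adjusted p from 0.0044 to 0.203). DEX gave log2 differences of 0.02 (adjusted p 0.898) in normoxia and 0.04 (adjusted p 0.83) in hypoxia. Apom, the sphingosine-1-phosphate carrier, held 239, 209.8 and 224 CPM in Normoxia_PBS and 192, 202 and 184 CPM in Hypoxia_PBS (-0.22, adjusted p 0.0876). Under DEX it fell with hypoxia from 198, 237 and 228 CPM to 166, 205 and 173 CPM (-0.28, SE 0.0953, adjusted p 0.0279). These groups overlapped, and the call was lost without replicate 1 or 3 of Hypoxia_DEX and without replicate 2 or 3 of Normoxia_DEX (adjusted p up to 0.14).

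Apob and Apoe, the structural protein of VLDL and the remnant ligand, passed the threshold of edgeR in no comparison of the reported fit. Apob held 6146, 5900 and 6594 CPM in Normoxia_PBS and 6540, 7702 and 7466 CPM in Hypoxia_PBS, with overlapping groups (log2 difference 0.22, adjusted p 0.0615). This difference passed in DESeq2, without the low-count filter, without replicate 1 of Hypoxia_PBS, without replicate 3 of Normoxia_PBS and without both libraries that stood apart (adjusted p from 0.0238 to 0.298 over the settings). Under DEX it held 5539, 5522 and 6140 CPM in normoxia and 6186, 6448 and 6298 CPM in hypoxia (0.14, adjusted p 0.212). DEX gave Apob log2 differences of -0.12 in normoxia (adjusted p 0.417) and -0.20 in hypoxia (adjusted p 0.159). In hypoxia the 2 groups did not overlap. Both DEX differences passed with library totals alone (adjusted p 0.0106 and 0.0102). Apoe is made by hepatocytes and also by macrophages such as the liver's Kupffer cells. It held 13650, 13100 and 15440 CPM in Normoxia_PBS, 14500, 14190 and 14030 CPM in Normoxia_DEX, 13540, 13820 and 13110 CPM in Hypoxia_PBS and 14240, 15820 and 14500 CPM in Hypoxia_DEX. Its 4 pairwise log2 differences were -0.06, 0.06, 0.02 and 0.14 for hypoxia in saline, hypoxia under DEX, DEX in normoxia and DEX in hypoxia, with adjusted p from 0.31 to 0.926. Hypoxia in saline passed for Apoe with library totals alone (adjusted p 0.0346). Kupffer cell markers fell with hypoxia in the same libraries (median -1.31 in saline), and their part in the Apoe level was not tested. Before scaling for composition, the 10 genes together took 3.61% to 3.90% of counts in Normoxia_PBS and 3.56% to 3.86% in Hypoxia_PBS. These ranges overlap although Apoa4 rose. The shares were 3.46% to 3.54% in Normoxia_DEX and 3.57% to 3.59% in Hypoxia_DEX, both below the range of Normoxia_PBS.

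Levels per kilobase of exon put Apoa2, Apoe and Apoa1 ahead of the other members in every group. In Hypoxia_DEX Apoe, with a mean of 6948 CPM per kilobase, stood before Apoa2, with 6705. In Normoxia_PBS the mean was 7711 CPM per kilobase for Apoa2, 6577 for Apoe, 4125 for Apoa1, 3185 for Apoc1, 1287 for Apoc3, 446 for Apob, 439.6 for Apoa5, 221 for Apom and 59.0 for Apoa4. In Hypoxia_PBS Apoa4 reached 1263 ± 369 (SD, n = 3) CPM per kilobase and came after Apoc3, with 1911 ± 194 (SD, n = 3), and before Apoa5, with 818 ± 150 (SD, n = 3). The order of the group means within a gene differed between members. For Apoa4 the order was Normoxia_PBS, Normoxia_DEX, Hypoxia_DEX and Hypoxia_PBS, and the ranges of the last 2 overlapped. For Apoa5 it was Normoxia_DEX, Normoxia_PBS, Hypoxia_DEX and Hypoxia_PBS, with overlap again between the last 2 only.

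Of the members, 7 lie in 2 gene clusters. On chromosome 9 Apoa1 (46228580 to 46230466, plus strand), Apoc3 (46232933 to 46235636, minus strand), Apoa4 (46240696 to 46243459, plus strand) and Apoa5 (46268633 to 46271919, plus strand) are separated by 2466, 5059 and 25173 bases. In saline, hypoxia gave log2 differences of -0.26, 0.57, 4.42 and 0.90 in that order. On both sides, 7 listed neighbours were tested. With hypoxia in saline 0 rose, beside 18.9% of all tested genes, and 2 fell, beside 16.8%. These were Zpr1, a zinc finger protein gene (-0.28, adjusted p 0.0148, but 0.0708 without replicate 1 of Normoxia_PBS), and Bud13, a splicing factor gene (-0.54, adjusted p 0.0361). The Bud13 call was lost without replicate 2 or 3 of Hypoxia_PBS and without replicate 1 or 2 of Normoxia_PBS (adjusted p up to 0.116). Sik3, a kinase gene, gave 0.03, Pafah1b2 -0.14, Tagln -0.39, Pcsk7 0.13 and Sidt2 -0.07, none of them called. DEX in normoxia raised Sik3 (0.39, adjusted p 0.00133) and Pafah1b2 (0.21, adjusted p 0.0344, lost in 13 of 20 other settings), lowered Zpr1 (-0.47, adjusted p 0.001), and in hypoxia again raised Sik3 (0.55, adjusted p 0.000195).

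The second cluster is on chromosome 7, all on the minus strand, with Apoc2 (19671579 to 19677941), Apoc1 (19689481 to 19692660) and Apoe (19696109 to 19699188). Between Apoc2 and Apoc1 lies Apoc4, a further small apolipoprotein that is not in the set of 10. Apoc4 held 370.1, 325 and 392 CPM in Normoxia_PBS and 571, 589 and 533 CPM in Hypoxia_PBS. The groups did not overlap, and the rise was 0.64 on the log2 scale (SE 0.0848, adjusted p 0.000101), while Apoc1, 8001 bases away, fell by 0.30. Under DEX the Apoc4 rise with hypoxia was 0.52 (adjusted p 0.000339). Of 6 tested neighbours outside the cluster, 2 rose with hypoxia in saline, beside 18.9% of all tested genes. They were Tomm40, a mitochondrial import gene (0.52, adjusted p 0.00442), and Nectin2, an adhesion gene (0.34, adjusted p 0.0144). Nectin2 did not pass without replicate 3 of Hypoxia_PBS or replicate 2 of Normoxia_PBS (adjusted p up to 0.104). Clptm1 (0.05), Relb (0.54), Bcam (0.05) and Bcl3 (-0.21) were not called. DEX in normoxia lowered Nectin2 (-0.64, adjusted p 0.000472), the 1 call of edgeR among the 6, beside 16.8% of all tested genes. DESeq2 called 2, with Relb (edgeR log2 difference -2.49, adjusted p 0.122), and a fit of just those groups called 3. Apoa2 lies alone on chromosome 1 (171225054 to 171226379), Apob on chromosome 12 (7977648 to 8016835) and Apom on chromosome 17 (35128997 to 35132050).

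**Figure D3:**
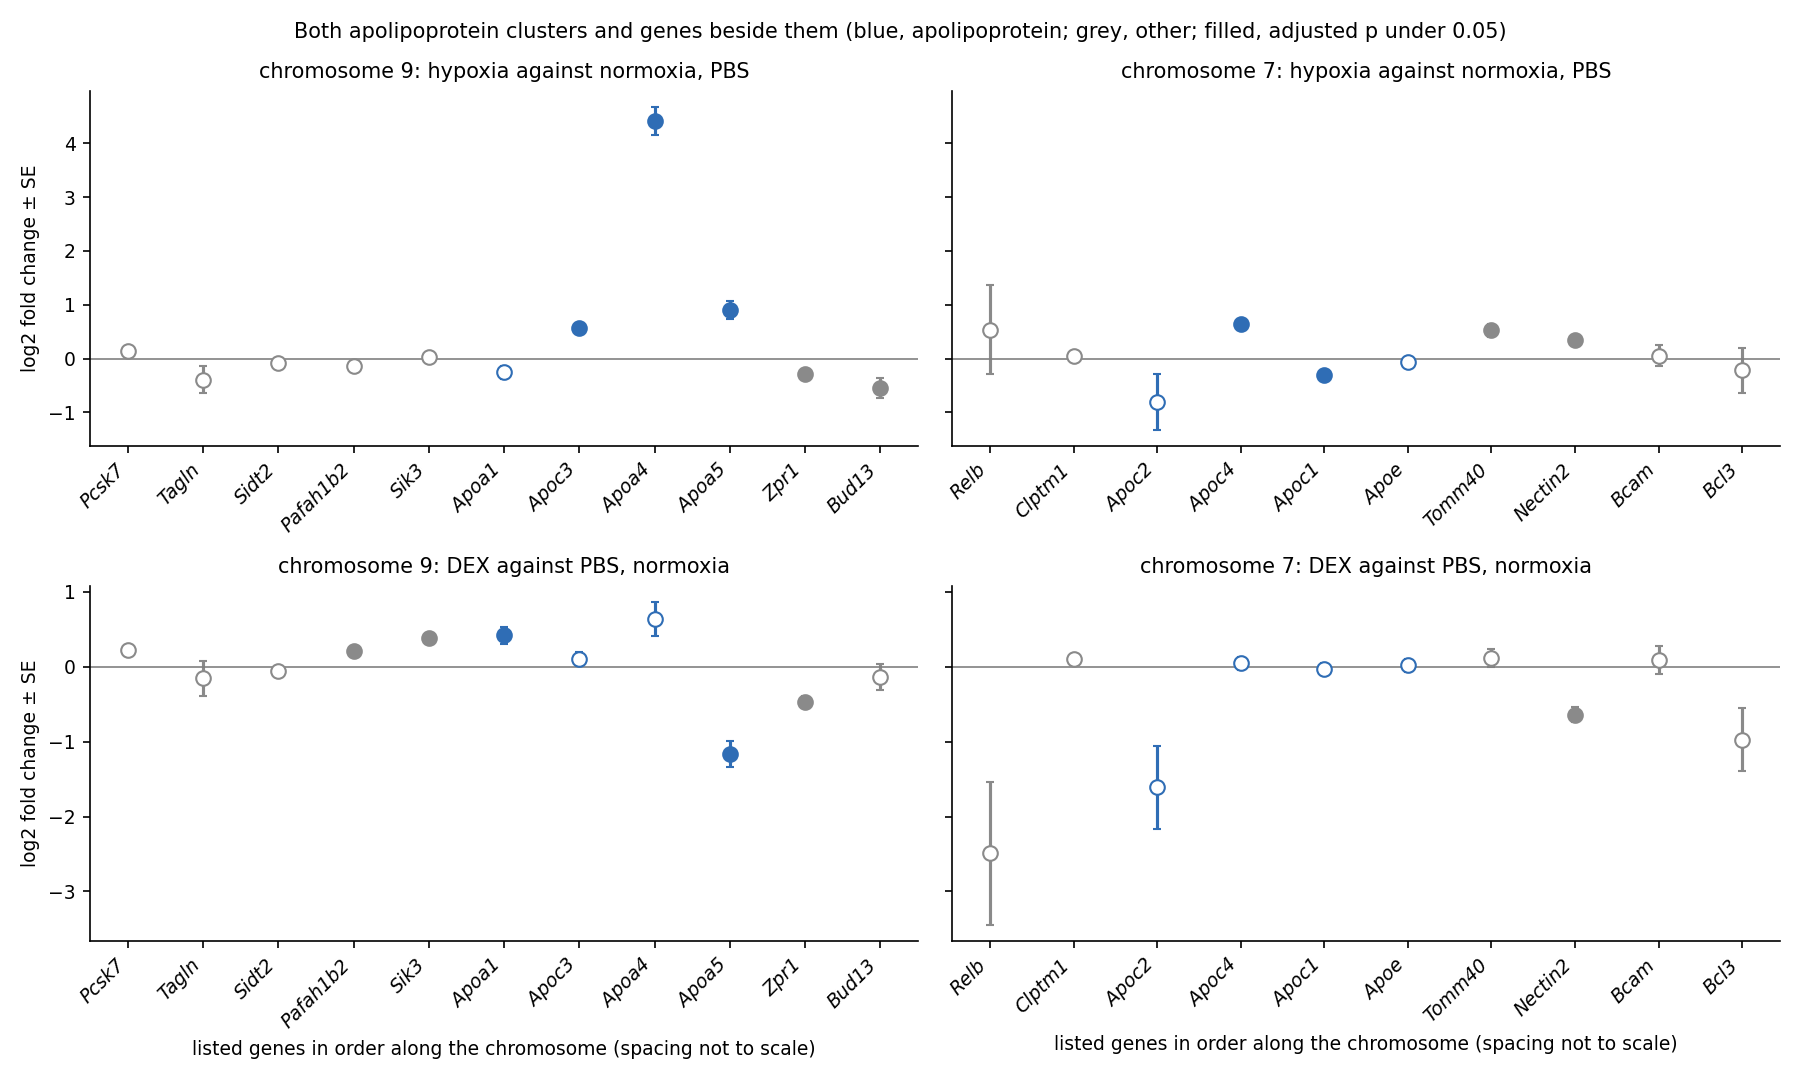
Log2 fold change with its SE (y axis) for apolipoprotein genes (blue) and listed neighbours (grey) in their order along chromosomes 9 and 7, for hypoxia in saline (upper panels) and DEX in normoxia (lower panels). Filled points had an adjusted p under 0.05; Apoa4, at 4.42, stands far above the genes on both sides of it.

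Among genes that load and export lipoprotein particles, more rose than fell with hypoxia. Of 19 tested genes of assembly and secretion, 10 rose and 3 fell in saline, beside 18.9% and 16.8% of all tested genes. Under DEX 12 rose and 4 fell, beside 20.7% and 22.2%. The list had median log2 fold changes of 0.303 and 0.27 beside 0.0069 and -0.0211 for all tested genes. Mttp, which transfers triglyceride onto Apob, went from 283 ± 29.5 to 565 ± 90.3 CPM (SD, n = 3), a log2 rise of 0.998 (SE 0.124, adjusted p 5.95e-05). Its partner subunit P4hb rose from 1113 to 2026 CPM (adjusted p 2.27e-06). Smlr1, a small membrane protein needed for VLDL export, rose with hypoxia (0.81, adjusted p 0.00134) and fell with DEX in normoxia (-0.75, adjusted p 0.00532). Sort1, a sorting receptor that binds Apob, fell with hypoxia (-0.47, adjusted p 0.00516). With DEX in normoxia 2 rose and 2 fell, beside 9.38% and 7.4% of all tested genes. Among those that rose was Dgat2, the last enzyme of triglyceride synthesis (0.62, adjusted p 0.00326). With DEX in hypoxia 3 rose and 1 fell, beside 6.13% and 7.05% of all tested genes. Without replicate 1 or 3 of Hypoxia_DEX or replicate 3 of Hypoxia_PBS 1 rose. The gene that fell was Apobec1, the Apob mRNA editing enzyme (-0.89, adjusted p 0.0301). That call was lost without replicate 1 or 3 of Hypoxia_DEX and without replicate 2 or 3 of Hypoxia_PBS (adjusted p up to 0.121).

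Of 11 genes of HDL formation and remodelling, 3 rose and 3 fell with hypoxia in saline, beside 18.9% and 16.8% of all tested genes. Under DEX 2 rose and 4 fell with hypoxia, beside 20.7% and 22.2%. Hepatic lipase, Lipc, went from 198 to 96.4 CPM (log2 fold change -1.04, adjusted p 1.79e-06). Bmp1, the protease that processes the Apoa1 precursor, rose by 0.76 (adjusted p 0.000109), and so did Lcat, which esterifies HDL cholesterol (0.42, adjusted p 0.00178). With DEX in normoxia 4 rose (Abca1, Lipg, Scarb1 and Bmp1) and 0 fell, beside 9.38% and 7.4% of all tested genes. Without replicate 2 or 3 of Normoxia_DEX or replicate 2 of Normoxia_PBS 1 rose, and without replicate 1 of Normoxia_PBS 2 did; Scarb1 (0.59, adjusted p 0.00397) passed in all 20 other settings. Endothelial lipase, Lipg, rose by 1.35 there and by 1.22 with hypoxia in saline, with adjusted p of 0.0276 and 0.0254. Leaving out replicate 1 or 2 of Normoxia_PBS, or any treated library of the comparison, ended each call (adjusted p up to 0.0851 and 0.074). With DEX in hypoxia edgeR called 0 of 11, beside 13.2% of all tested genes. DESeq2 called 0, and 1 (Abca1) had an unadjusted p under 0.05.

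Among receptors, lipases and their regulators, more fell than rose with hypoxia. Of 14 tested, 1 rose and 7 fell in saline (median -0.345), beside 18.9% and 16.8% of all tested genes. Under DEX 2 rose and 9 fell (median -0.451), beside 20.7% and 22.2%. Lpl, the lipase that Apoc2 activates, went from 27.7 to 7.73 CPM (log2 fold change -1.85, adjusted p 2.27e-06). Angptl4, an inhibitor of that lipase, rose from 71.1 to 203 CPM (1.51, adjusted p 0.00384). Angptl8, a feeding-induced regulator of lipoprotein lipase, went from 53.4 CPM in Normoxia_PBS to 9.43 with DEX, 7.93 with hypoxia and 2.50 CPM with both, and fell in all 4 comparisons. Gpihbp1, which holds the lipase on capillaries, rose with DEX in normoxia (0.46, adjusted p 0.0113, lost without replicate 2 of either group) and hypoxia (0.43, adjusted p 0.0226, lost without replicate 1 of Hypoxia_DEX or replicate 2 or 3 of Hypoxia_PBS). Over all settings its adjusted p reached 0.0998 and 0.0981. With DEX 2 of 14 rose (0 without replicate 2 of Normoxia_DEX or of Normoxia_PBS) and 1 fell in normoxia, and 1 rose and 1 fell in hypoxia. Among all tested genes 9.38% rose and 7.4% fell with DEX in normoxia, and 6.13% rose and 7.05% fell in hypoxia. Lpl and Stab1 are made by non-hepatocytes of the liver, whose markers are given below. The part of these cells in the falls with hypoxia was not tested.

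Transcription factors that act on apolipoprotein genes were mixed. Of 23 tested, 3 rose (1 without replicate 3 of Hypoxia_PBS or replicate 2 of Normoxia_PBS) and 5 fell with hypoxia in saline (median 0.00119), and 2 rose and 5 fell under DEX. Among all tested genes 18.9% rose and 16.8% fell with hypoxia in saline, and 20.7% rose and 22.2% fell under DEX. Nr1h4, the bile acid receptor, rose by 0.92 (adjusted p 2.27e-06), and Creb3l3, an activator of Apoa4 and other fasting genes in liver, gave 0.56 (adjusted p 0.0319, lost in 11 of 20 other settings, up to 0.168) in saline and 1.07 (adjusted p 0.00076) under DEX. Hnf4a, a central activator of apolipoprotein genes, named here after its values were seen, went from 1032 to 634 CPM (-0.70, adjusted p 4.14e-05). With DEX 2 rose and 4 fell in each oxygen condition. The shares of all tested genes were 9.38% and 7.4% in normoxia, and 6.13% and 7.05% in hypoxia. The 4 that fell became 2 in normoxia without replicate 3 of Normoxia_DEX or replicate 2 of Normoxia_PBS. In hypoxia they became 1 without replicate 1 or 3 of Hypoxia_DEX and 2 without replicate 2 or 3 of Hypoxia_PBS. Nr1d1, the clock repressor REV-ERBα, fell in all 4 comparisons, from 78.2 CPM in Normoxia_PBS to 14.5 with DEX, 22.3 with hypoxia and 8.70 CPM with both. Under DEX its fall with hypoxia (-0.74, adjusted p 0.0125) was lost without replicate 3 of Hypoxia_DEX or replicate 2 of Normoxia_DEX (adjusted p up to 0.0625). Foxo1, an insulin-responsive factor, rose with DEX by 1.21 in normoxia (adjusted p 0.000557) and by 1.28 in hypoxia (adjusted p 0.000795).

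Other apolipoprotein genes outside the set were tested for 9 of 13 names. With hypoxia in saline 2 rose (Apoc4 and Apoh) and 4 fell (Clu, Apol7c, Apol9a and Apol9b), beside 18.9% and 16.8% of all tested genes. Under DEX 1 rose and 3 fell with hypoxia, beside 20.7% and 22.2%. The Apoh call was lost without replicate 2 of either group, and the Apol7c call in 10 of 20 other settings, DESeq2 among them. Apol9a, of the Apol family, fell by 2.45 on the log2 scale, from 26.6 to 4.90 CPM, and Apol9b by 2.27. DEX in normoxia lowered 2 (Apol7c and Apol9a), beside 7.4% of all tested genes. In hypoxia edgeR called 0 of 9 with DEX, beside 13.2%, and DESeq2 called 1, while 3 had an unadjusted p under 0.05.

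**Figure D4:**
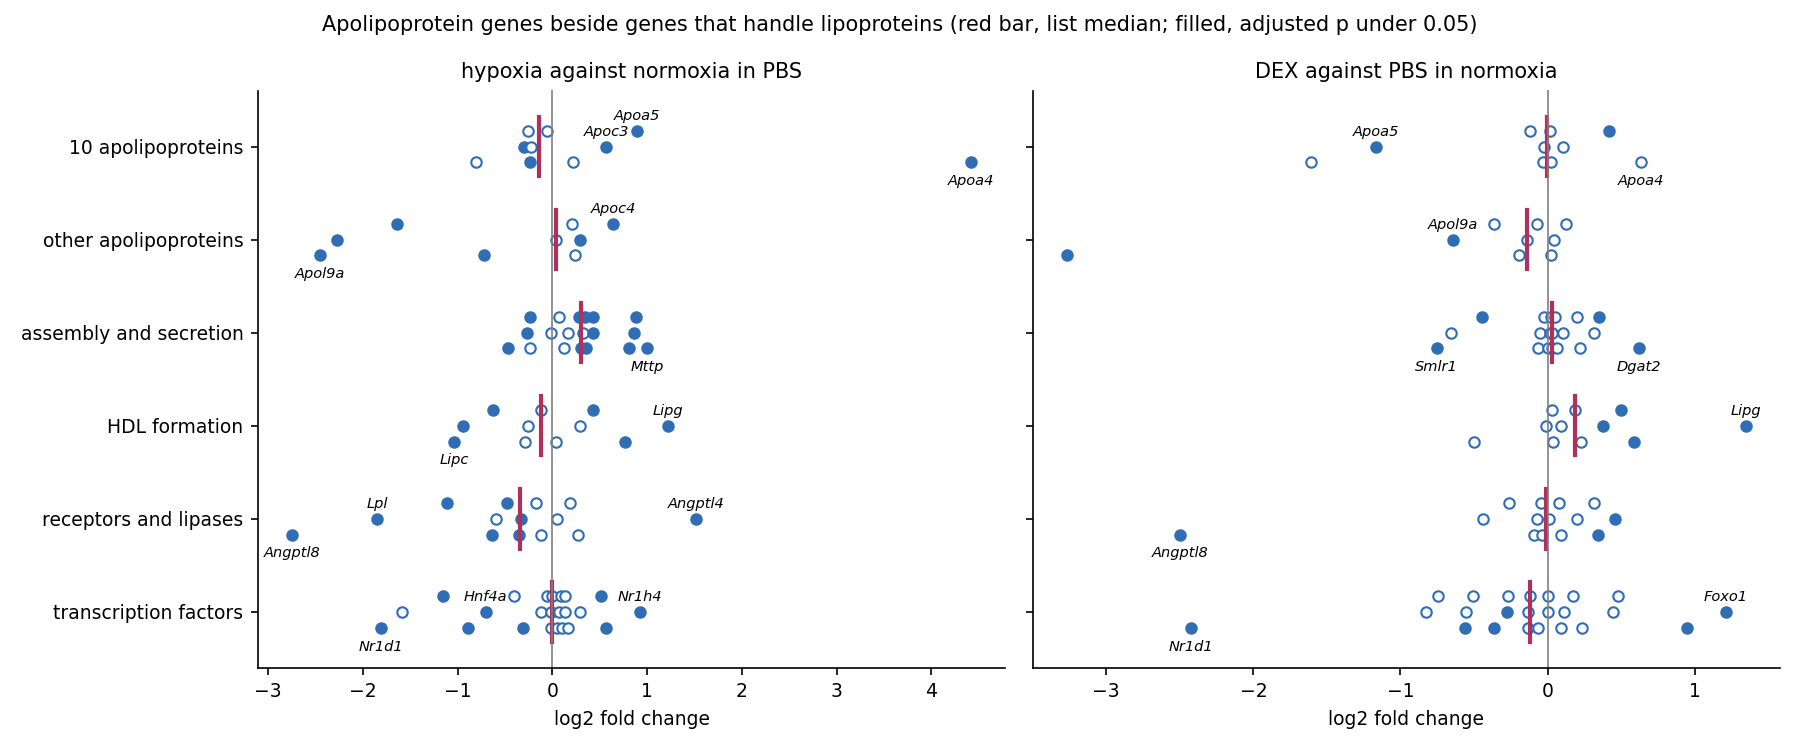
Log2 fold change (x axis) of every tested gene in the set of 10 and in 5 lists of related genes, for hypoxia in saline (left) and DEX in normoxia (right). Points are genes, filled where the adjusted p was under 0.05, and red bars are list medians, which lie at 0.303 for assembly and secretion and at -0.345 for receptors and lipases in the left panel.

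The genes whose levels followed Apoa4 and Apoa5 most closely over the 12 libraries were found by Pearson's r of log2 CPM, given as a description because the libraries share their groups. For Apoa4 they were Aqp4 (0.992), a water channel, Abca5 (0.991), Bhmt2 (0.989) and P4hb (0.989). Aqp4 had mean levels of 1.35 and 2.24 CPM in the normoxic groups and 21.3 and 21.0 CPM in the hypoxic groups. For Apoa5 they were Smlr1 (0.978), Cnot1 (0.975), Mbd6 (0.972) and Nr1i3 (0.969), the nuclear receptor CAR. Nr1i3 had means of 211, 137, 447 and 422 CPM in Normoxia_PBS, Normoxia_DEX, Hypoxia_PBS and Hypoxia_DEX, and its gene lies 4352 bases from Apoa2. Among the members r was 0.95 between Apoa4 and Apoc3, 0.94 between Apoa2 and Apoc1, 0.79 between Apoa4 and Apoa5 and -0.81 between Apoa1 and Apob.

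Markers were read in the same libraries because whole liver holds several cell types, and in bulk tissue fewer cells of a type and less RNA per cell cannot be told apart. The summed level of 10 hepatocyte markers, from the cells that make these apolipoproteins, was 134400 to 143900 CPM in Normoxia_PBS, 166800 to 178000 in Normoxia_DEX, 145200 to 168400 in Hypoxia_PBS and 159500 to 165300 in Hypoxia_DEX. Alb, with 1188867 to 2828748 counts per library, had the most counts of the 10. With DEX in normoxia 2 of the 10 rose (Alb and Serpina3k) and 0 fell, beside 9.38% and 7.4% of all tested genes. With DEX in hypoxia 2 rose and 1 fell, beside 6.13% and 7.05%. With hypoxia in saline 3 of the 10 rose and 2 fell, but 0 fell without replicate 1 or 3 of Hypoxia_PBS or replicate 1 or 2 of Normoxia_PBS. Among all tested genes 18.9% rose and 16.8% fell with hypoxia in saline, and 22.2% fell under DEX. All 12 Kupffer cell markers fell with hypoxia, in saline and under DEX (medians -1.31 and -1.28), and their summed level was 527 to 695 CPM in Normoxia_PBS and 215 to 264 CPM in Hypoxia_PBS. With DEX edgeR called 0 of the 12 in normoxia and in hypoxia, beside 16.8% and 13.2% of all tested genes. DESeq2 called 0 in normoxia and 1 in hypoxia, and 1 marker in each had an unadjusted p under 0.05. Of 8 stellate cell markers 5 fell with hypoxia in saline, of 8 endothelial markers 1 rose and 4 fell, and of 5 tested erythroid markers 1 rose. Their part in the apolipoprotein differences was not tested. Without the 2 libraries that stood apart, hypoxia in saline raised 4 and lowered 2 of the 10 members, and Apoa4, Apoa5 and Apoc3 had log2 rises of 4.14, 0.72 and 0.56.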

How the data were processed

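Liver RNA from 12 mice was sequenced after a stranded mRNA library preparation, per the labels. The authors deposited raw read counts per Ensembl gene in 1 table. The submitters' processing notes name Trimmomatic, HISAT2 2.0.4, SAMtools, featureCounts, DESeq2 and the mm10 build, without their order; how the counting treated strand and overlaps is not given in the sources used here. Symbols came from GENCODE M21. Counts were tested with edgeR 4.0.16 (R 4.3.3): low counts filtered by group, TMM scaling, 1 mean per group, robust quasi-likelihood fit with 8 residual degrees of freedom, Benjamini-Hochberg over 13861 genes, threshold 0.05. The code was tested on simulated data. DESeq2 1.42.0 and other settings are in the closing section.

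The members and lists were chosen with earlier results of these data known. All 10 members are reported. From each list at most 4 genes were named, the called genes with the largest rise and fall per comparison, and all tested neighbours; P4hb, Lcat, Hnf4a, Apobec1, Abca1, Scarb1, Apoh, Clu and Stab1 were named outside that rule after their values were seen. Likeness used log2 CPM (prior count 2) and named 4 genes for each member called with a log2 change of at least 1. Promoters are from RefSeq (GRCm38.p6). Gene lengths are exon unions, known for 13853 tested genes. Counting error shrinks with depth; the spread between mice sets the errors given.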

Additional observations from a re-analysis of the deposited data

How the results depend on the processing

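Each result was recomputed under 20 other settings. No member reversed a called direction; a change of sign in a value that was not called was counted as no change. For the members, 909 of 986 recomputed values kept their side of the threshold, 34 lost and 43 gained a call. A second tally held the genes named by the rule above, Hnf4a, Apobec1 and the glucocorticoid receptor gene Nr3c1. There these were 3290, 110 and 61 of 3461. Other genes named outside that rule were not in the tally. Scaling by library totals moved the median of all tested genes to -0.1218 (hypoxia in saline), -0.1513 (DEX in normoxia) and -0.1022 (DEX in hypoxia), and calls under it are relative to that shift. With hypoxia in saline, 5 members were called; library totals gave 8, and leaving out 1 library at a time gave 3 to 6. With DEX in normoxia, 2 were called, 1 where the fit held just those groups, and 1 to 3 without single libraries. Library totals called 3 there, all of them lower, so that the Apoa1 rise was lost. With DEX in hypoxia, 0 were called; DESeq2, RLE size factors, no low-count filter, a fit of just those groups and leaving out both libraries that stood apart gave 1 (Apoa1), library totals gave 1 (Apob), and single libraries left out gave 0 to 1. With hypoxia under DEX, 5 were called, 3 with Hypoxia_DEX replicates 1 and 3 summed, and 3 to 6 without single libraries. For the interaction, 0 were called; DESeq2 and leaving out both libraries that stood apart gave 1 (Apoa5), and single libraries left out 0 to 1. Same-numbered libraries correlated between -0.151 and 0.39 in their deviations from the group means. With 3 libraries per group these values cannot decide whether the numbers mark a shared batch, and the labels do not say so. A replicate block gave 1 call with DEX in hypoxia (Apoa1) and 1 in the interaction (Apoa4). The interaction has no such reduced fit, since it uses all 4. Fits that leave a group with 2 libraries assume that these vary like the other groups. The causes of these changes were not tested.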
